A study of Mus musculus with 15 samples.

Results

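Suppressor of cytokine signaling (SOCS) inhibitors, STAT transcription factors and Janus kinases form 1 feedback circuit, and 9 of its genes were followed here in mouse hematopoietic stem cells (HSCs). The genes were Socs1, Socs2, Socs3, Cish, Stat3, Stat5a, Stat5b, Jak1 and Jak2, taken by symbol from a table of 20696 genes. All 9 were among the 11345 genes whose mean over all libraries was at least 1 FPKM (read fragments scaled to gene length and library size), and the mean of each was also at least 1 FPKM in every group. HSCs were sorted by flow cytometry from bone marrow, and 2 ng of total RNA per library was amplified with the SMART-Seq v4 kit. Of the 15 libraries, 5 came from young control mice (3 months), 5 from aged control mice (18 months) and 5 from aged mice labelled as Thbs1 knockout (18 months). The labels name no strain, no sort markers and no construction of the knockout allele, and do not say that the 5 libraries of a group came from separate animals. The p-values therefore measure the spread between these libraries, part of which may be technical. The comparisons ask how HSC transcripts differ with age and with the Thbs1 knockout label.

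Cytokine receptors of this class have no kinase of their own and signal through bound Janus kinases, which phosphorylate STAT proteins. The STATs then enter the nucleus and activate genes that include those of their own inhibitors, SOCS proteins and CIS, which block the receptor or its kinase and so close a negative feedback loop. In blood cells JAK2 often acts with STAT5, and receptors that use the gp130 subunit signal mainly through JAK1 and STAT3.

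The promoters of 3 inhibitors are shown because these genes are feedback targets of the circuit and hold letters to which STATs or interferon factors are known to bind. Sequences are RefSeq windows from 250 bases before to 50 bases after a start that RefSeq gives for the gene. For Socs3 and Cish the whole window lies inside the gene coordinates given further on, so the offsets below refer to the RefSeq start. The table held 10 such windows for 8 of the 9 genes, and Socs2 was not among them. Capitals mark TTCNNNGAA, the core of a STAT site, in Socs3 and Cish, and GAAANNGAAA, the core of an interferon-stimulated element, in Socs1.
Socs3 promoter, GRCm38.p6 chr11:117969317-117969616, minus strand: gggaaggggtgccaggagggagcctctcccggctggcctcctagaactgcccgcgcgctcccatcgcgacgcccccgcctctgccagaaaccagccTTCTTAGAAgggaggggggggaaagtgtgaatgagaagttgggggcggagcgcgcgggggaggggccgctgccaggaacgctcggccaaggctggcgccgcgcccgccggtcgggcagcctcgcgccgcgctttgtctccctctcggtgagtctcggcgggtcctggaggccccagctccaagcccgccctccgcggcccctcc
Cish promoter, GRCm38.p6 chr9:107296409-107296708, plus strand: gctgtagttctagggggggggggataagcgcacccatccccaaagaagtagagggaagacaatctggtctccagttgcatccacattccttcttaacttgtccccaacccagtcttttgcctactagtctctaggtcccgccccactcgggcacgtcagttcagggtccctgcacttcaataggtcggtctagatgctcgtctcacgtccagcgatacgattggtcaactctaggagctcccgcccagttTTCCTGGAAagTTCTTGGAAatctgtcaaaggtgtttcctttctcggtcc
Socs1 promoter, GRCm38.p6 chr16:10785487-10785786, minus strand: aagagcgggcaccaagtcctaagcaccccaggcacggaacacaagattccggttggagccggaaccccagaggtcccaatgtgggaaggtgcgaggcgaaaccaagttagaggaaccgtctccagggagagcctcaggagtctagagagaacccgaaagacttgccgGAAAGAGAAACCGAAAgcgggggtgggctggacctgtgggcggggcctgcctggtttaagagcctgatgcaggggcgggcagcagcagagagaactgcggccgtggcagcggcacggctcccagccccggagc
Both strands were searched for each motif. Socs3 had 1 match to TTCNNNGAA (TTCTTAGAA, first base at offset -154 from the start), Cish had 2 (TTCCTGGAA at offset 0 and TTCTTGGAA at offset 11), and Socs1 had none. Socs1 had 2 overlapping matches to GAAANNGAAA (GAAAGAGAAA at -83 and GAAACCGAAA at -77), which no other window of these genes held. The windows of Stat3, Stat5a, Stat5b, Jak1 and Jak2 held neither motif. Of all 32851 promoters of 300 bases, 8.3% held TTCNNNGAA and 0.457% held it at 2 or more places, while 3.44% held GAAANNGAAA and 0.225% at 2 or more places. These matches describe letters in a window and are not measured binding sites.

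Reads in genes, recovered from the steps of the FPKM values, ranged from 16.65e6 to 28.63e6 per library. They were 0.8975 to 1.038 times the recovered library size, which aged control 3 and aged Thbs1 knockout 5 exceeded, so these depths are approximate. For some libraries the recovered size also differed from the series text, and the smaller size was used because it already gave whole reads. These depths put 116 to 1338 reads on Socs3, 119 to 884 on Socs2, 113 to 1059 on Jak2 and 5871 to 12919 on Stat3 in each library. Genes typed as rRNA took 0.268% to 0.679% of reads in 13 libraries and up to 2.97% in replicates 2 and 5 of the libraries labelled aged Thbs1 knockout, which stood apart. Thbs1, the gene named in the knockout label, averaged 4.24 ± 5.28 FPKM in young controls, 2.90 ± 3.84 in aged controls and 10.4 ± 7.84 in libraries labelled aged Thbs1 knockout (SD, n = 5 each). It was not lower there, so every direction below belongs to these libraries by their label, called labelled knockouts here, and not to a measured loss of Thbs1. In each sex, every labelled knockout was above every aged control for Thbs1. Males lay at 1.69 and 2.53 against 0.01 to 0.62 FPKM, and females at 12.69 to 17.89 against 4.9 and 8.75 FPKM. The difference between these groups was 1.73 on the log2 scale and was not called (limma adjusted p = 0.302). Each column of the table has both a sample title and a library name, and in 10 of 15 columns these point to different samples by GEO's descriptions. Groups follow the titles and sex follows the library names, so results by sex rest on both names of a column. Xist was at 2.50 to 5.81 FPKM in the 8 libraries named female and at most 0.02 in the 7 named male, and the Y-linked Eif2s3y at most 0.04 and 2.12 to 5.72 FPKM, so the sex in the library name matched these genes in 15 of 15 columns. The letter A, B or C in the library name also followed the group of the title in all 15. The sex in GEO's description of the sample named by the title matched Xist and Eif2s3y in 9 of 15 columns. With groups from GEO's descriptions of the library names instead, Socs3 differed between aged and young by -1.35 on the log2 scale (limma adjusted p = 0.856) and between labelled knockouts and aged by 1.15 (limma adjusted p = 0.773), both in the opposite direction.

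The label of the cells was checked against 9 HSC markers, all of which were present in every library (Kit 34.5 to 163 FPKM, Slamf1 3.59 to 13.9 FPKM). Cd3g of T cells and Adgre1 of macrophages stayed under 1 FPKM in all 15 libraries and were at 0 in 9 and 6 of them. Other genes of the same lists were higher, Nkg7 at 21.87 to 117.11 FPKM and Cd68 at 5.35 to 12.08 FPKM. Lyz2 of the myeloid list lay at 355 to 505 FPKM and Cd79b of the B cell list at 29.2 to 63.8 FPKM. These markers therefore do not show that other cells were absent. Aged control 5 stood apart, with a summed level of 5 megakaryocyte markers of 1900 FPKM and of 5 erythroid markers of 363 FPKM. The medians of the aged controls for these sums were 594 and 53.6 FPKM. In bulk RNA, fewer cells of a type and less RNA per cell cannot be told apart.

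FPKM here is scaled to the length of all annotated exons of a gene. That is 2891 nucleotides for Socs3, 2908 for Socs1, 6419 for Cish and 9531 for Socs2. The order below is by FPKM, and places in it depend on these lengths. In young controls the order of mean levels was Stat5b, Jak1, Stat3 and Stat5a at 50.1 to 38.1 FPKM, then Socs1 and Cish at 12.2 and 10.98 FPKM, then Jak2, Socs2 and Socs3 at 5.02, 2.51 and 2.40 FPKM. The step below Stat5a was the only one between neighbours whose libraries did not overlap. In aged controls Stat3 moved to the top at 55.8 FPKM, clear of Stat5b at 42.4 FPKM, and Socs3 moved from the last place to sixth at 18.6 FPKM, above Cish at 9.02 FPKM. In the labelled knockouts the order was again headed by Stat5b and Stat3, at 39.2 and 38.4 FPKM, with Socs3 seventh at 4.69 FPKM, between Cish at 8.91 and Jak2 at 2.41 FPKM.

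**Figure D1:**
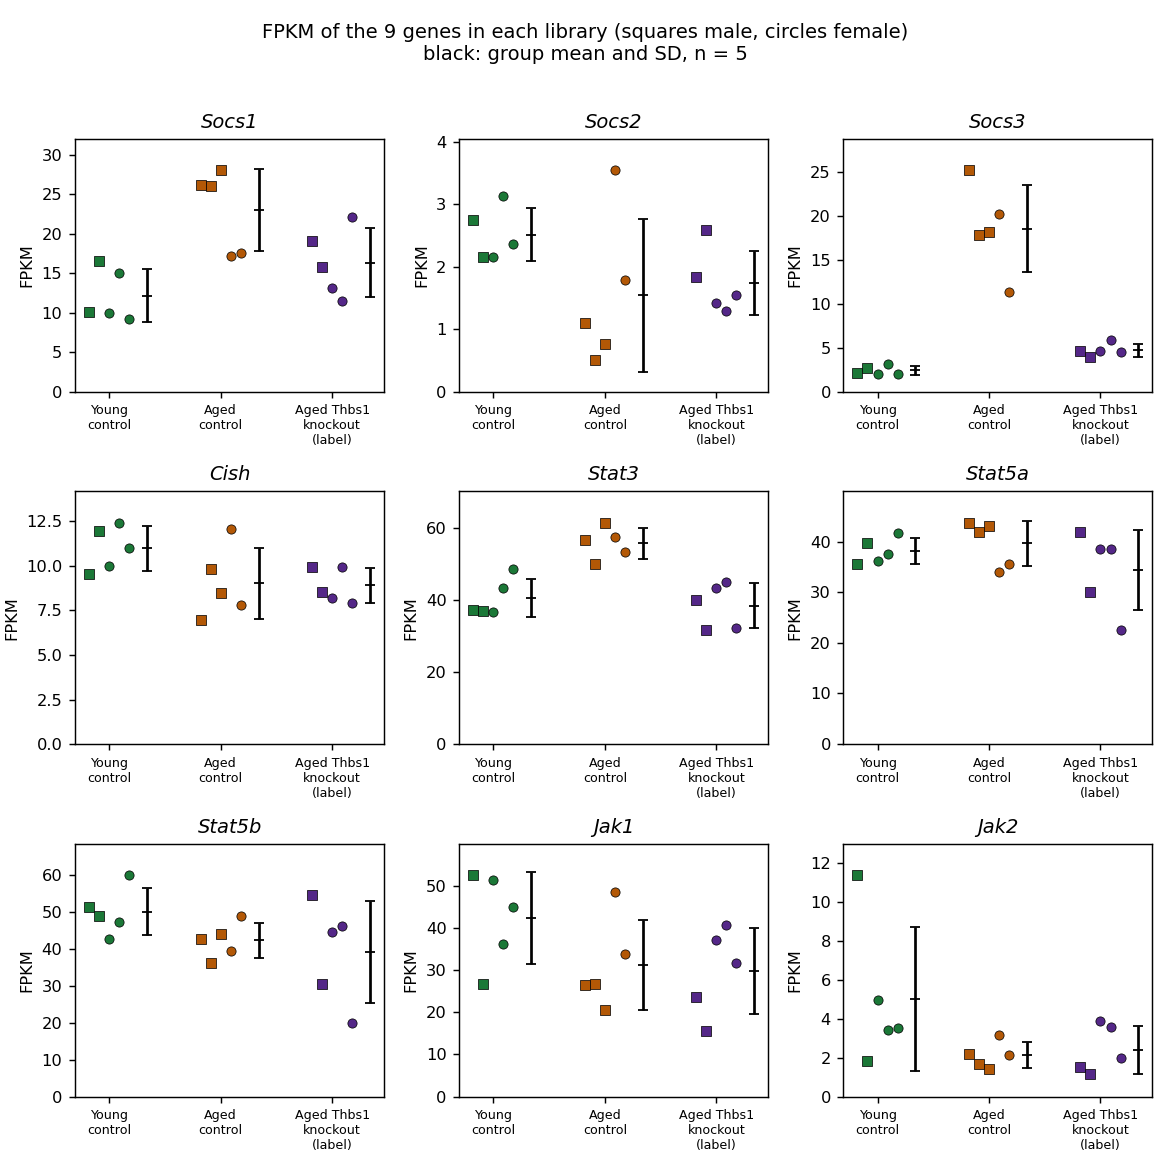
FPKM (vertical axes, each from 0) of the 9 genes in every library of the 3 groups, with squares for male and circles for female libraries and the group mean and SD in black (n = 5). Socs3 lies at 11.34 to 25.20 FPKM in aged controls, above all young controls and all labelled knockouts, and the other inhibitors and kinases overlap more between groups.

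Socs3 was high in aged control HSCs and low in the other groups. It encodes the inhibitor that binds gp130-type receptors and blocks JAK1 and JAK2 there (ENSMUSG00000053113, GRCm38 chromosome 11, 117966079 to 117970047, minus strand). Young controls, in the order of their replicate numbers here and below, measured 2.16, 2.72, 2.04, 3.13 and 1.96 FPKM. Aged controls measured 25.20, 17.83, 18.18, 20.22 and 11.34 FPKM. The labelled knockouts measured 4.63, 3.89, 4.62, 5.86 and 4.47 FPKM. The 3 groups occupied separate ranges, with young controls lowest and aged controls highest. Socs3 was the 1 gene of the 9 whose labelled knockouts and young controls did not overlap, where 4.5% of all tested genes did not overlap. The mean of aged controls, 18.6 ± 4.99 FPKM, was 7.72 times that of young controls (2.40 ± 0.504) and 3.95 times that of the labelled knockouts (4.69 ± 0.719; SD, n = 5 each).

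The age difference of Socs3 was 2.49 on the log2(FPKM + 1) scale (SE 0.18, 95% interval 2.12 to 2.87, limma adjusted p = 1.6e-07). In all, 2 of the 9 genes rose with age, Socs3 and Socs1, where 4.42% of all tested genes were called, 3.18% as higher and 1.23% as lower. The labelled knockouts fell below aged controls by 1.75 (SE 0.18, limma adjusted p = 1.79e-05). Socs3 and Stat3 were the 2 genes that fell there, where 1.55% of all tested genes were called, 0.361% as higher and 1.19% as lower. Socs3 also lay 0.75 above young controls in these libraries (SE 0.18, limma adjusted p = 0.0413), the 1 call among the 9 genes in that comparison, where 1.63% of all tested genes were called, 1.01% as higher. The 3 comparisons share groups, so these values stand side by side and are not independent. The 9 genes were chosen with earlier results of these data known, so these counts are not independent evidence about the circuit.

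The age rise of Socs3 was present in both sexes, at 2.63 in males (3 aged against 2 young libraries) and 2.28 in females (2 against 3), with limma adjusted p = 4.12e-05 and 0.000322. Its change in the labelled knockouts was -2.01 in males and -1.44 in females (limma adjusted p = 0.000796 and 0.0255). Neither difference between the sexes passed (limma adjusted p = 0.746 and 0.999). Males carry the lower replicate numbers in every group, so sex and a batch that follows these numbers cannot be told apart. Aged control 5, with the megakaryocyte and erythroid markers named above, had the lowest Socs3 of its group. Without it the age rise was 2.65 and the change in the labelled knockouts -1.90 on the log2 scale. Without both rRNA-rich libraries the latter was -1.66 (limma adjusted p = 0.000338). The higher level against young controls was less firm: it lost its call without both rRNA-rich libraries (0.83, limma adjusted p = 0.064). It also lost it without young control 1, 2, 3 or 5, aged control 2 or 3, or labelled knockout 1 or 5 (0.70 to 0.78, limma adjusted p = 0.0553 to 0.124), with voom on recovered reads (adjusted p = 0.0958), without the level filter (limma adjusted p = 0.0703) and with the length covariate described further on (limma adjusted p = 0.104).

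**Figure D2:**
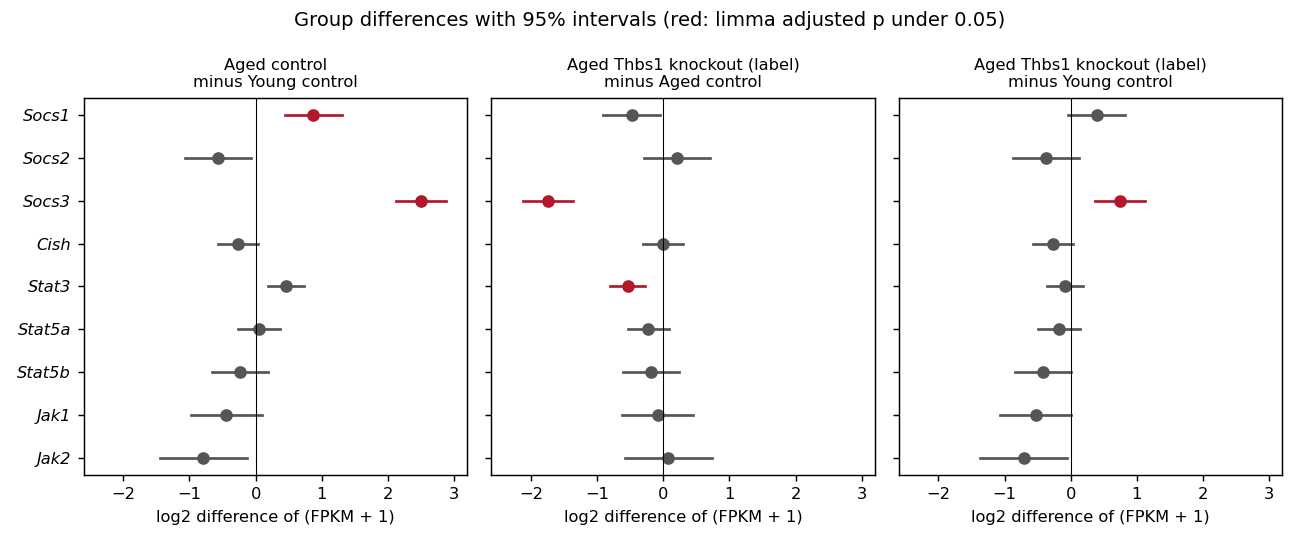
Difference of log2(FPKM + 1) between group means (horizontal axis) with its 95% interval from limma for the 9 genes in the 3 comparisons, in red where the adjusted p is under 0.05. Socs3 stands at 2.49, -1.75 and 0.75, and the intervals of Stat5a, Stat5b and Jak1 include 0 in each panel.

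Socs1 also rose with age. It encodes the inhibitor that binds JAK kinases directly and limits interferon signaling (ENSMUSG00000038037, chromosome 16, 10782240 to 10785536, minus strand). Its FPKM was 10.03, 16.57, 9.93, 15.07 and 9.21 in young controls. It was 26.20, 26.06, 28.03, 17.12 and 17.53 in aged controls. It was 19.07, 15.78, 13.07, 11.43 and 22.18 in the labelled knockouts. Every aged control lay above every young control, though only narrowly for the 2 aged females, and the labelled knockouts overlapped both groups. The age difference was 0.87 (SE 0.21, limma adjusted p = 0.0175), with means of 12.2 ± 3.40 and 23.0 ± 5.23 FPKM (SD, n = 5 each). The call was lost without aged control 1, 2 or 3 or young control 1, 3 or 5 (0.79 to 0.82, limma adjusted p = 0.0569 to 0.0623). By sex the age difference was 0.995 in males (limma adjusted p = 0.0379) and 0.593 in females, where it did not pass (limma adjusted p = 0.696). The difference between the sexes did not pass either (limma adjusted p = 0.73). The labelled knockouts averaged 16.3 ± 4.38 FPKM and differed from aged controls by -0.48 (95% interval -0.91 to -0.05, limma adjusted p = 0.32), which did not pass. Groups did not overlap with age for 3 of the 9 genes, Socs3, Socs1 and Stat3, where 7.16% of all tested genes did not overlap.

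Socs2 and Cish, the inhibitors best known as STAT5 targets, were not called in any comparison. Socs2 dampens growth hormone signaling (ENSMUSG00000020027, chromosome 10, 95385362 to 95417180, minus strand). Its FPKM was 2.75, 2.15, 2.15, 3.13 and 2.36 in young controls and 1.84, 2.58, 1.42, 1.29 and 1.54 in the labelled knockouts. In aged controls it was 1.10, 0.50, 0.76, 3.54 and 1.79, the widest relative spread of the 9 genes in any group (coefficient of variation 79.3%). Its age difference was -0.58 (SE 0.24, limma adjusted p = 0.188), and without aged control 4, the highest library, it was -0.81 and passed (limma adjusted p = 0.0202).

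Within aged controls the males had the lowest Socs2. The 3 aged males lay at 0.50 to 1.10 FPKM, below both young males (2.15 to 2.75), and Socs2 fell with age in males by 0.96 (limma adjusted p = 0.0267, where 7.75% of genes were called in males). In females the difference was 0.01, where 0.961% of genes were called. The age change of females minus that of males was 0.97 (SE 0.34) and did not pass (limma adjusted p = 0.501), so the sexes are not shown to differ. From aged controls to the labelled knockouts, both males were higher than all 3 aged males (difference 0.85) and all 3 females were lower than both aged females (difference -0.56). The difference between these changes, -1.41, did not pass over all genes (unadjusted p = 0.000841, limma adjusted p = 0.596).

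Cish encodes CIS, which competes with STAT5 for receptor docking sites (ENSMUSG00000032578, chromosome 9, 107296026 to 107302784, plus strand). It averaged 10.98 ± 1.24 FPKM in young controls, 9.02 ± 1.99 in aged controls and 8.91 ± 0.976 in the labelled knockouts (SD, n = 5 each). Its group ranges overlapped, from 6.98 to 12.41 FPKM over all libraries, and its differences were -0.27, -0.0007 and -0.27 in the 3 comparisons. The interval of the middle difference, -0.30 to 0.30, covers changes in both directions. The gene Gm17040, also in the table, overlaps Cish on the other strand, and use of strand in counting is not given in the sources used here.

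Stat3 was the member of the STAT trio that was highest in aged controls. It is the factor activated by gp130 receptors and by the G-CSF receptor (ENSMUSG00000004040, chromosome 11, 100885098 to 100939540, minus strand). Its FPKM was 37.14, 36.88, 36.77, 43.38 and 48.67 in young controls. It was 56.64, 50.10, 61.44, 57.62 and 53.28 in aged controls. It was 39.91, 31.63, 43.29, 45.11 and 32.22 in the labelled knockouts. All 5 aged controls lay above all 10 other libraries, and young controls and labelled knockouts overlapped. Between labelled knockouts and aged controls, groups did not overlap for Socs3 and Stat3, where 2.34% of all tested genes did not overlap.

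The fall of Stat3 in the labelled knockouts was 0.54 (SE 0.13, limma adjusted p = 0.0403), from 55.8 ± 4.32 to 38.4 ± 6.23 FPKM (SD, n = 5 each). Its age difference was 0.46 (SE 0.13, 95% interval 0.19 to 0.73) and just missed the threshold (limma adjusted p = 0.0513). Both values sit near the threshold. The fall lost its call without both rRNA-rich libraries (-0.37, limma adjusted p = 0.139), and without aged control 1, 2, 3 or 4, labelled knockout 2 or 5, or young control 1, 2, 3 or 4. Over those leave-outs it was -0.58 to -0.47 (limma adjusted p = 0.0531 to 0.124). It also lost its call with voom on recovered reads, without the level filter, with quantile normalization and with only the 2 groups compared (adjusted p = 0.0685, 0.0545, 0.0918 and 0.153). The age difference passed with sex added to the model (0.48, limma adjusted p = 0.0295), with only the 2 groups compared (limma adjusted p = 0.016), without both rRNA-rich libraries (limma adjusted p = 0.00907), without young control 5 or aged control 5, and without labelled knockout 2, 4 or 5 (0.46 to 0.52, limma adjusted p = 0.0263 to 0.0454). Between labelled knockouts and young controls Stat3 differed by -0.08 (95% interval -0.35 to 0.19, limma adjusted p = 0.712).

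Stat5a and Stat5b, close homologs that act below many cytokine receptors, were not called in any comparison. Stat5a (ENSMUSG00000004043, chromosome 11, 100859351 to 100885169, plus strand) averaged 38.1 ± 2.55 FPKM in young controls, 39.6 ± 4.53 in aged controls and 34.3 ± 7.87 in the labelled knockouts (SD, n = 5 each). Stat5b (ENSMUSG00000020919, chromosome 11, 100780731 to 100850724, minus strand) averaged 50.1 ± 6.34, 42.4 ± 4.82 and 39.2 ± 13.8 FPKM in the same groups. Among the labelled knockouts replicates 2 and 5, the rRNA-rich libraries, were lowest, at 30.13 and 22.60 FPKM for Stat5a and 30.48 and 19.89 FPKM for Stat5b. The other 3 lay at 38.54 to 41.84 and 44.56 to 54.62 FPKM. With all libraries the labelled knockouts differed from aged controls by -0.23 for Stat5a and -0.19 for Stat5b (limma adjusted p = 0.54 and 0.744). Without those 2 libraries the values were 0.01 and 0.19, on the other side of 0.

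The 3 STAT genes are neighbours on chromosome 11. Annotated Stat5a and Stat3 overlap by 72 bases at their ends, on opposite strands. Stat5a and Stat5b also share sequence: of the 50-base windows of their exons, 608 are identical, 8.21% of those of Stat5a and 10.985% of those of Stat5b. Reads from these stretches could be split between the pair. Over the 15 libraries log2 levels of Stat5a and Stat5b correlated at r = 0.81, and at 0.84 after removal of group means; for Stat3 the values were 0.60 with Stat5a and 0.38 with Stat5b (0.64 and 0.70 after removal). These values describe 15 libraries that share depth and RNA quality.

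Jak1 and Jak2, the kinases of the circuit, were lower on average in both aged groups, without passing the test. Jak1 (ENSMUSG00000028530, chromosome 4, 101152367 to 101265282, minus strand) lay at 52.42, 26.63, 51.43, 36.23 and 45.02 FPKM in young controls. It lay at 26.53, 26.80, 20.59, 48.54 and 33.74 FPKM in aged controls and at 23.72, 15.57, 37.19, 40.64 and 31.60 FPKM in the labelled knockouts. All 3 groups overlapped, and the age difference was -0.44 (SE 0.26, limma adjusted p = 0.329). Jak1 was the 1 gene of the 9 that differed by sex with group in the model, higher in females by 0.60 (SE 0.16, limma adjusted p = 0.0249, where 12.9% of all tested genes were called, so 1 of 9 is no more than the background). In each aged group every female library was above every male library; among young controls male 1 was the highest of all. A length-dependent property of the libraries, the tilt defined further on, also differed by sex in aged controls, at -0.32 to -0.15 in males and 0.17 to 0.32 in females. With it in the model, a fit added after seeing the data, the sex difference of Jak1 was 0.41 (SE 0.14) and was not called (limma adjusted p = 0.0526).

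Jak2, the kinase of the erythropoietin receptor (ENSMUSG00000024789, chromosome 19, 29251828 to 29313080, plus strand), was the lower kinase in all 15 libraries. Young control 1 reached 11.35 FPKM, and the other young controls lay at 1.85 to 4.95 FPKM. Aged controls lay at 1.42 to 3.16 FPKM and the labelled knockouts at 1.15 to 3.86 FPKM, both within the range of young controls or below it. The age difference was -0.79 (SE 0.31, limma adjusted p = 0.172). The difference of labelled knockouts from aged controls was 0.08, with an interval of -0.58 to 0.74 that leaves room for changes in both directions. Jak1 overlaps Raver2, also in the table, on the other strand.

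Part of the spread among these genes moved with a property of the libraries. For each library the median log2 deviation of genes with over 8000 nucleotides of exons was compared with that of genes with at most 1500 (1493 and 1735 genes), called length tilt here. Young controls had tilts of -0.02 to 0.52, aged controls of -0.32 to 0.32 and labelled knockouts of -0.86 to 0.37, with the rRNA-rich replicates 2 and 5 at -0.66 and -0.86. Log2 levels of Jak1, Stat5b and Jak2 correlated with it at r = 0.79, 0.77 and 0.75, and Socs1 at r = -0.71, over 15 libraries. Socs3 and Stat3 correlated weakly, at -0.23 and 0.30. Jak1 and Jak2 correlated with each other at 0.85, and with Socs1 at -0.67 and -0.73.

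With length tilt as a covariate, chosen after seeing the data, the age differences of Jak1 and Jak2 were -0.16 and -0.46 in place of -0.44 and -0.79. The age difference of Socs1 was 0.62 (limma adjusted p = 0.01294) and its difference between labelled knockouts and aged controls -0.62, which then passed (limma adjusted p = 0.0125). Stat3 passed with age (0.56, limma adjusted p = 0.00382). Socs3 was 2.50 with age and -1.75 in the labelled knockouts, as large as without the covariate. Its difference between labelled knockouts and young controls was also 0.75 but was no longer called (limma adjusted p = 0.104).

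**Figure D3:**
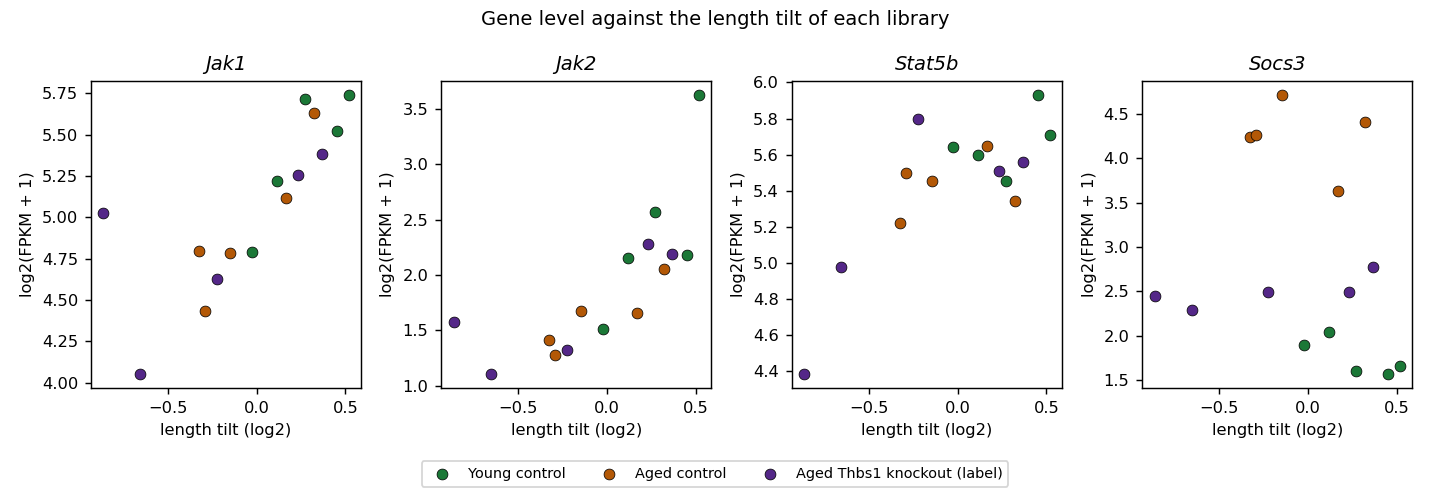
log2(FPKM + 1) of Jak1, Jak2, Stat5b and Socs3 (vertical axes) against the length tilt of each library (horizontal axis, log2), 1 point for each of 15 libraries, coloured by group. The kinases and Stat5b rise with the tilt (r = 0.79, 0.75 and 0.77), and Socs3 is highest in the 5 aged controls, whose tilt runs from -0.32 to 0.32.

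Of the 9 other SOCS, JAK and STAT genes tested, none was called in any of the 3 comparisons. Their median log2 differences were 0.04, -0.29 and -0.26, beside -0.02, -0.03 and -0.06 for all tested genes. The medians of the 9 circuit genes were -0.23, -0.19 and -0.27. Jak3, the kinase of the common gamma chain, was the most abundant of the JAK family by group mean, with means of 54.7 ± 6.52, 75.6 ± 14.5 and 50.02 ± 22.0 FPKM (SD, n = 5 each; limma adjusted p = 0.35 with age). Socs4 missed the level filter at a mean of 0.935 FPKM. Of 16 phosphatases, PIAS proteins and adaptors tested, none was called; Ptpn6, the phosphatase SHP-1, had means of 142, 124 and 115 FPKM.

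Known STAT target genes included several that were high where Socs3 and Stat3 were high. Of 21 tested, 5 rose with age and none fell, where 3.18% of all tested genes rose and 1.23% fell. In the labelled knockouts 3 fell and none rose, where 1.19% of all tested genes fell and 0.361% rose. Bcl3, an IkB-family cofactor of NF-kB that STAT3 can induce, averaged 9.78 ± 2.28 FPKM in young controls, 26.9 ± 4.26 in aged controls and 11.2 ± 1.65 in labelled knockouts (SD, n = 5 each). It rose by 1.38 and fell by 1.19 (limma adjusted p = 2.58e-05 and 0.000292). Pim2, a survival kinase, averaged 32.3 ± 8.27, 75.6 ± 18.3 and 34.2 ± 5.69 FPKM, and Cebpd, a bZIP factor of the acute phase, 0.776 ± 0.146, 4.45 ± 1.70 and 1.5 ± 0.530 FPKM (SD, n = 5 each). Both passed in both comparisons: Pim2 rose by 1.20 and fell by 1.10, and Cebpd rose by 1.55 and fell by 1.08 on the log2 scale. The list was chosen with earlier results of these data known, so its direction is not independent evidence.

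Gadd45g, a growth arrest gene, rose with age by 2.16 (limma adjusted p = 0.000144) and was still above young controls in the labelled knockouts by 1.19 (limma adjusted p = 0.0437). Its level in the labelled knockouts was uneven, 28.9 ± 23.1 FPKM against 10.05 ± 1.41 in young and 48.6 ± 9.37 in aged controls (SD, n = 5 each). Cebpb, named after its values were seen, rose with age by 1.03 (limma adjusted p = 0.0295). Myc, Mcl1, Bcl2l1 and Pim1, which STAT5 or growth signals are known to induce, passed in neither comparison. The call of Gadd45g against young controls was lost in 13 alternatives, among them those without aged control 1, 2 or 3, labelled knockout 2 or any 1 young control (limma adjusted p = 0.0504 to 0.306). That of Cebpd in the labelled knockouts was lost without aged control 1 or 2 and with only the 2 groups compared (limma adjusted p = 0.0632 to 0.0976). Over the 21 tested targets the median was 0.25 with age and -0.20 in the labelled knockouts.

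**Figure D4:**
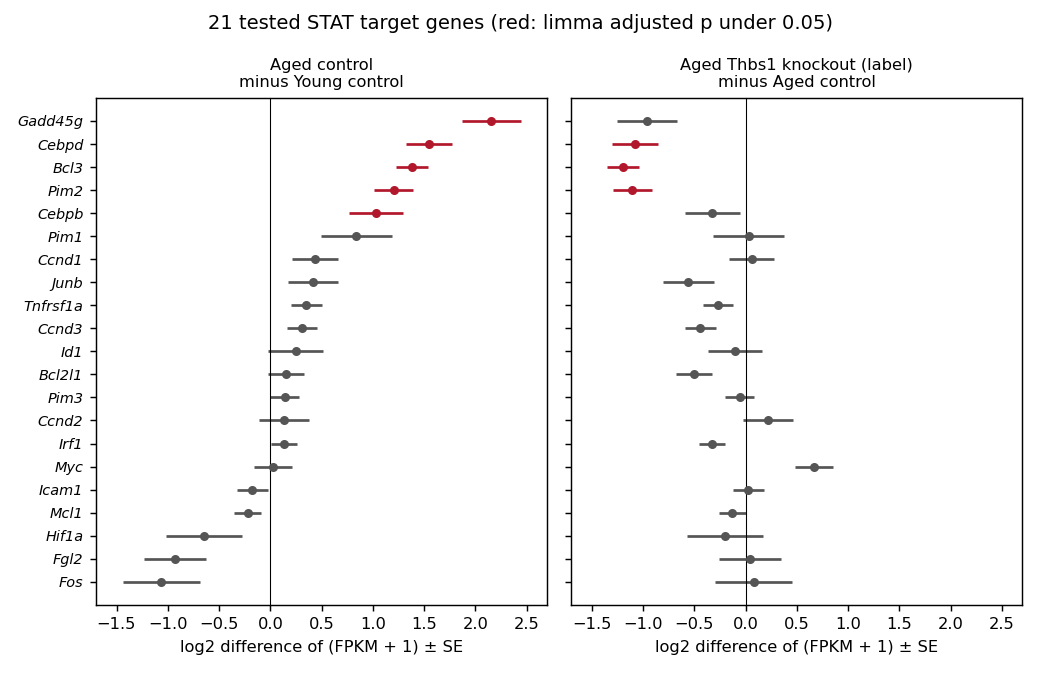
Difference of log2(FPKM + 1) with its SE (horizontal axes) for the 21 tested STAT target genes, aged against young controls on the left and labelled knockouts against aged controls on the right, in red where the limma adjusted p is under 0.05. Gadd45g, Cebpd, Bcl3, Pim2 and Cebpb pass on the left, and Cebpd, Bcl3 and Pim2 on the right; both panels share the aged controls.

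Upstream of the circuit, 19 of 25 cytokine receptor genes were tested. Of the receptor subunits that act with gp130, some were scarce: Il6ra averaged 0.867 FPKM, and Osmr and Lifr did not exceed 0.53 and 0.26 FPKM in any library. Others were not: Il11ra1 lay at 25.95 to 51.75 FPKM and Il27ra at 28.32 to 65.6 FPKM. Il6st, which encodes gp130, lay at 2.76 to 8.33 FPKM and was not called. Il27ra, a partner of gp130, rose with age from 35.4 ± 2.33 to 54.4 ± 11.4 FPKM (0.58, limma adjusted p = 0.0373), as did Il10ra, which signals to STAT3 (1.33 ± 0.647 to 5.82 ± 3.76 FPKM; SD, n = 5 each). In the labelled knockouts Csf3r, the G-CSF receptor, fell by 1.01 and Il2rg, the common gamma chain, by 0.65 (limma adjusted p = 0.0322 and 0.019). These receptor calls were near the threshold. That of Il27ra was lost with voom, without the level filter and without aged control 1, 2 or 3 or any 1 young control (adjusted p = 0.0591 to 0.128). That of Il10ra was lost with voom, without the level filter and without aged control 1, 2 or 4 or young control 2, 3, 4 or 5 (adjusted p = 0.0512 to 0.0994). That of Csf3r was lost in 10 alternatives, among them those without aged control 1, 2 or 3 or labelled knockout 2, 4 or 5, and that of Il2rg in 3, those without aged control 1 or 2 and with only the 2 groups (adjusted p = 0.0523 to 0.171 and 0.0722 to 0.103).

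Of 14 ligand genes, 5 were tested, and Il6 did not exceed 0.17 FPKM. Ctf1, cardiotrophin 1 of the gp130 family, rose with age by 0.75 (limma adjusted p = 0.0373), a call lost with voom, without the level filter and without aged control 1, 2 or 3 or young control 1, 3, 4 or 5 (adjusted p = 0.0582 to 0.121). Ebi3, a subunit of IL-27 and IL-35, ran opposite to Socs3, with 44.9 ± 3.96 FPKM in young controls, 12.2 ± 0.561 in aged controls and 28.1 ± 6.45 in labelled knockouts (SD, n = 5 each). It fell by 1.80 with age and rose by 1.116 in the labelled knockouts (limma adjusted p = 3.52e-07 and 0.00018).

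Some marker genes of other cells moved in the same direction as Socs3 and Stat3, and others did not. Klrb1c, an NK receptor, ranged over 2.07 to 3.68 FPKM among young controls, 9.71 to 22.6 among aged controls and 3.50 to 15.1 among labelled knockouts, and passed in both comparisons. The summed level of 3 T and NK markers was 53.1 to 104 FPKM, 67.0 to 134 FPKM and 29.1 to 61.1 FPKM in the same groups, while Cd3g was at 0 in 9 libraries. Of the 5 megakaryocyte markers, Itga2b rose with age by 1.01 and fell in the labelled knockouts by 1.79 (limma adjusted p = 0.0381 and 0.00101). Ppbp, a platelet chemokine of the same list, ran the other way with age, where it fell by 1.49 (limma adjusted p = 0.0117), and it was not called between labelled knockouts and aged controls (-0.43, limma adjusted p = 0.602). The other 3 markers were not called in these comparisons, and the sums of the 5 were 349 to 458, 268 to 1900 and 157 to 320 FPKM. Among HSC markers Procr rose with age, by 1.01, as did Ly6a, by 0.88, and Ly6a fell in the labelled knockouts by 1.116. The part of these cells in the values of Socs3, Socs1 and Stat3 was not tested.

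For each called gene, the 3 tested genes with the most similar log2 levels over the 15 libraries were named, with r after removal of group means in second place. For Socs3 they were Rcvrn (0.97 and 0.51), Septin5 (0.97 and 0.73) and Bcl3 (0.96 and 0.75). Rcvrn, which encodes a calcium sensor known from photoreceptors, averaged 0.33, 13.7 and 1.98 FPKM in the 3 groups. For Stat3 they were Gata2 (0.94 and 0.81), Sbno2 (0.93 and 0.82) and Sec14l1 (0.92 and 0.80), and Gata2, an HSC transcription factor, averaged 101, 126 and 96.4 FPKM. For Socs1 they were H2-T23 (0.97 and 0.93), Apoe (0.96 and 0.95) and Slc25a11 (0.95 and 0.90), with H2-T23, a class Ib MHC gene, at 193, 311 and 238 FPKM. All 9 correlations were lower after removal of group means, by the most for Rcvrn and by the least for Apoe. Socs3 and Socs1 correlated with each other at 0.77, and at 0.33 after removal of group means.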

How the data were processed

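Bulk RNA sequencing of sorted HSCs was analysed in 15 libraries of 3 groups. The authors deposited 1 table of FPKM values for 20696 genes, and per the submitters' processing notes the tools were FastQC 0.11.5, STAR and edgeR with genome build GRCm38 (mm10). Their settings: not given in the sources used here. Columns were grouped by sample title, and sex was read from the library name and checked against Xist and Y-linked genes. Gene identifiers were matched to GENCODE M21, and all 20696 were found.

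Values were analysed as log2(FPKM + 1), which understates changes of low genes. Groups were compared with limma 3.58.1 in R 4.3.3 (two-sided, trended prior variance, all 15 libraries in 1 fit, no covariate), tested on simulated data. The 11345 genes with a mean of at least 1 FPKM were tested, 9351 were not, and a gene counted as called at an adjusted p (Benjamini-Hochberg) under 0.05. Sex was tested with group in the model, and within groups by 6 means. Whole reads were recovered from the FPKM steps and GENCODE lengths: within 0.1 reads, 99.45% to 100% of low values were whole for genes up to 250 nucleotides and 97.64% to 99.13% for a held-out set of longer genes. Voom was run on these reads as an alternative added later, as were the length tilt covariate and the fit without aged control 5 and both rRNA-rich libraries.

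Named genes were the 9 members, the called genes among the 4 of each pathway list with the smallest p in each comparison, the 3 genes most like each called member (gene models and pseudogenes left out) and Thbs1. Other genes of these lists (among them Jak3, Ptpn6, Socs4, Myc, Il6st, Il6ra and Cebpb), markers and sex-linked genes were named outside this rule, after their values were seen, for their role or level. The members and lists were chosen with earlier results of these data known. How strand entered the counting is not stated, so overlapping genes may share reads.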

Additional observations from a re-analysis of the deposited data

Results flagged for a closer look

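The change of Socs2 from aged controls to the libraries labelled aged Thbs1 knockout ran in opposite directions in the sexes, for every library: both males were above all 3 aged males, and all 3 females were below both aged females. The female change minus the male change was -1.41 on the log2 scale (limma adjusted p = 0.596), which did not pass over all genes.

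The age change of Stat5a was also opposite in every library. All 3 aged males (41.89 to 43.68 FPKM) lay above both young males (35.59 and 39.62 FPKM), and both aged females (33.98 and 35.50 FPKM) lay below all 3 young females (36.12 to 41.73 FPKM). The female change minus the male change was -0.33 (limma adjusted p = 0.721) and did not pass. No library stood out from its group in any of the 27 groups of 5 checked for a single distant value.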

How the results depend on the processing

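The rise of Socs3 with age and its fall in the libraries labelled aged Thbs1 knockout kept their direction and call in 25 of 26 alternatives each, all but the grouping by library names in the descriptions. That grouping called 0 genes with age, 0 between labelled knockouts and aged controls (642 and 731 at an unadjusted p under 0.05 in limma) and 15 between labelled knockouts and young controls, with 0 of the 9 members in each. It turned the age differences to -1.35 for Socs3, -0.56 for Socs1, 0.55 for Socs2, 0.15 for Cish, -0.25 for Stat3, -0.12 for Stat5a, 0.045 for Stat5b and 0.12 for Jak1. Those of other genes became -0.80 for Bcl3, -0.93 for Cebpd, -0.97 for Gadd45g, -0.60 for Pim2, -0.62 for Il10ra, -0.35 for Il27ra, -0.47 for Ctf1 and 0.86 for Ebi3. Labelled knockouts minus aged controls became 1.15 for Socs3, 0.23 for Socs1, -0.26 for Socs2, 0.19 for Stat3, 0.26 for Jak1, 0.57 for Bcl3, 0.48 for Cebpd, 0.63 for Pim2, 0.0195 for Csf3r and -1.10 for Ebi3. Against young controls they became -0.20 for Socs3, -0.32 for Socs1, 0.29 for Socs2, 0.37 for Jak1 and 0.052 for Jak2. By title, the young set of that grouping held young controls 1 and 2 and aged controls 1, 2 and 3. Its aged set held young controls 3, 4 and 5 and labelled knockouts 1 and 2. Its knockout set held aged controls 4 and 5 and labelled knockouts 3, 4 and 5. Each set thus mixed 2 groups of the titles. The cause of the mismatch between names was not tested.

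Genes called with age (501) were 1011 with only the 2 groups compared, 1030 without both rRNA-rich libraries and 2196 without those and aged control 5; leaving out 1 library gave 311 to 943 genes, fewer by over 1.5 times without aged control 1, 2 or 3 or young control 1 or 3 and more without aged control 5, and 1 to 3 members. For labelled knockouts minus aged controls (176) they were 457 with length tilt as a covariate, 77 with only the 2 groups and 349 without the 3 libraries; leaving out 1 library gave 95 to 229 genes, fewer by over 1.5 times without aged control 1, 2 or 3, and 1 to 2 members. There, 1 member (Socs3, without Stat3) was called with voom, without a filter, with only the 2 groups, with quantile normalization, with the replicate block and in both fits without rRNA-rich libraries. For labelled knockouts minus young controls (185) they were 429 with sex as a covariate and 102 with length tilt; leaving out 1 library gave 98 to 676 genes, fewer by over 1.5 times without any 1 young control and more without labelled knockout 3 or 4, and 0 to 1 members. There, 0 members were called with length tilt, voom, no filter and without both rRNA-rich libraries. The sex call of Jak1 was lost with no filter and with length tilt (0 members each).

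Values near 0 changed sign. Labelled knockouts minus aged controls, Cish became 0.0175 with length tilt, 0.0013 with voom, 0.0009 with a pseudocount of 0.1, 0.046 with quantile normalization, 0.065 without both rRNA-rich libraries and 0.024 without the 3 libraries. In these last 2 fits and with length tilt Jak1 became 0.14, 0.18 and 0.0725, and Stat5b 0.19 and 0.24 in the last 2; Stat5a became 0.0079 without both rRNA-rich libraries. Against young controls Stat3 became 0.082 in the same 2 fits and 0.0755 with length tilt, and Stat5a 0.057 in the last 2. With age, Stat5a became -0.0004 with voom and -0.019 with quantile normalization. Leaving out 1 library, labelled knockouts minus aged controls ran from -0.078 to 0.10 for Cish, -0.21 to 0.12 for Jak1, -0.068 to 0.23 for Jak2 and -0.32 to 0.029 for Stat5b.

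The replicate block called 499, 152 and 158 genes in the 3 comparisons. Same-numbered libraries correlated over 0.1 in 1, 3 and 2 of 5 pairs and 6 of 15 libraries correlated best with their own number, so the numbers were not taken as pairs; Stat3 had limma adjusted p = 0.0607 under the block between labelled knockouts and aged controls. The recovered depth, with at least 113 reads on each of the 9 genes, limits single-library values of Socs2 and Jak2 most.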
